A study of Mus musculus with 6 samples.

Results

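The 36 genes described here encode molecular chaperones of the cytosol and the mitochondria, the cochaperones that work with them and 2 transcription factors of the heat shock response. They were chosen by name, with earlier results of these data known, and grouped into heat-inducible genes, constitutive genes of the HSP70 system, the HSP90 machinery that serves steroid receptors, mitochondrial chaperones, the cytosolic chaperonin CCT and the heat shock factors. Of the 36 genes, 32 were measured among 30063 genes, each by the brightest transcript cluster annotated with that gene alone. Hspa1b and Dnaja1 lay only in clusters that also named another gene, and Hsp90ab1 and Hsf1 were not analysed here. No filter on dim genes was applied, so all 32 were tested.

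RNA came from tumor cells of MCRedAL allografts in male mice, a mouse prostate cancer line that carries the red fluorescent protein mCherry, and was read on Affymetrix MTA 1.0 arrays, which cover whole transcripts. Of the 6 arrays, 3 held untreated tumors (Intact) and 3 held tumors treated with degarelix (7dPC, a tag left unexplained, so that no sampling time is given here). Degarelix blocks the receptor for gonadotropin-releasing hormone and so lowers androgen; it was injected under the skin once tumors had grown to around 500 mm2, and mice were assigned to groups at random. Cells were sorted for mCherry and against CD45, CD11b and a macrophage antigen, and only RNA with an integrity number of 9 or more was used. Titles name the replicates biological, all samples are of 1 line, and age and strain of the mice are not given in the labels used here. The 3 arrays per group limit the precision of every value. In sorted bulk samples, fewer cells of a type and less RNA per cell cannot be told apart.

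Chaperones bind unfolded or partly folded proteins. HSP70 proteins take up short exposed stretches with the help of J-domain proteins and release them when nucleotide exchange factors act, and HSP90 receives selected clients from HSP70 through the adaptor that Stip1 encodes. Steroid receptors, the androgen receptor among them, are held by HSP90 and its immunophilin partners in a state that can bind hormone. Under heat or other stress, heat shock factors bind repeats of the letters GAA and TTC, called heat shock elements, and raise the inducible members.

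The promoter letters show which of these genes carry such an element near the start. Windows from 250 bases before to 50 bases after an annotated start (RefSeq, GRCm38.p6) were searched on both strands for a pair of inverted repeats, TTCNNGAA or GAANNTTC, and for a triplet, in which such a pair is followed after NN by one more inverted repeat, so that each triplet also counts as overlapping pairs. Windows were found for 30 of the 36 genes, and not for Hsp90aa1, Hsp90ab1, Hspa8, Hspa9, Hspa13 and Hsf1. The genes with a window include Hspa1b and Dnaja1, which have no expression value of their own here. A pair lay in a window of 14 of the 30 genes, against 17.0% of 27025 genes (15.06% of 32851 windows of this length), and a triplet in 4 of the 30, against 0.7% of genes. The heat-inducible genes held a pair in 7 of 8, the constitutive HSP70 genes in 2 of 10, the steroid receptor group in 2 of 4, the mitochondrial group in 2 of 4 and the chaperonin in 1 of 3, while Hsf2 had no match in its window. Among the 7 heat-inducible genes with a pair, the near-identical neighbours Hspa1a and Hspa1b each held 1, both centred at -100. A match is a description of letters and not a measured site.

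The windows printed next are those of Hspb8, the 1 member that rose, of Hspa1a and Hsph1, classic inducible genes that did not pass the test, and of Hspe1, a member that fell. Letters of heat shock element pairs are in capitals, each window runs 5′ to 3′ along its gene, and the positions are chr5:116422815-116423114 (minus strand), chr17:34972107-34972406 (minus strand), chr5:149636266-149636565 (minus strand, the first of 2 overlapping windows) and chr1:55087898-55088197 (plus strand).
Hspb8: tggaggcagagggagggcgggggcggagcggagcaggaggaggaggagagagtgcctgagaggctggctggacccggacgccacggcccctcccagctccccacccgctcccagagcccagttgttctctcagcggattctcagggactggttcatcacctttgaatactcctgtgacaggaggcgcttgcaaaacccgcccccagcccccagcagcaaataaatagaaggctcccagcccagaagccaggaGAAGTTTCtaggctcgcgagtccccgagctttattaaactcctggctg
Hspa1a: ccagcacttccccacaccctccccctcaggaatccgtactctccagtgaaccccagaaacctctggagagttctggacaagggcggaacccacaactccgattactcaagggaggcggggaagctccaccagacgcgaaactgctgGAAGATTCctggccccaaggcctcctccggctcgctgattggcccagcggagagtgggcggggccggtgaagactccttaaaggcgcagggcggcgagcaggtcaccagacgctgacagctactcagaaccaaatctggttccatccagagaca
Hsph1: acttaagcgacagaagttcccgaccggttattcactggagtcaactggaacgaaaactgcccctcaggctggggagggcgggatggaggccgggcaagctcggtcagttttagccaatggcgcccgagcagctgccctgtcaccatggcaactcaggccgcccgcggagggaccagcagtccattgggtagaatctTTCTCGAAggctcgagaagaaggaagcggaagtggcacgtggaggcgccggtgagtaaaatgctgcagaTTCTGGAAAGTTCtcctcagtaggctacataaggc
Hspe1: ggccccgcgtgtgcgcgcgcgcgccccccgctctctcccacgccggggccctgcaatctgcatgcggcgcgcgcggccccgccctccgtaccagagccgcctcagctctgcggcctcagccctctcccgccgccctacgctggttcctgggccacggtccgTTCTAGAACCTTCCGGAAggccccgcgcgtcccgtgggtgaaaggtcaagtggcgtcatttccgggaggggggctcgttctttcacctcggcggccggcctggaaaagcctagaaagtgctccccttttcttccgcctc
The window of Hspe1 shares 285 bases with a window of Hspd1, since both genes start from 1 stretch on opposite strands. The 18 capital letters of Hspe1, TTCTAGAACCTTCCGGAA, at chr1:55088059-55088076, are the same match counted for both genes and form 3 overlapping pairs. The single pair of Hspb8 was centred 6 bases after the start, and that of Hspa1a at -100.

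**Figure D1:**
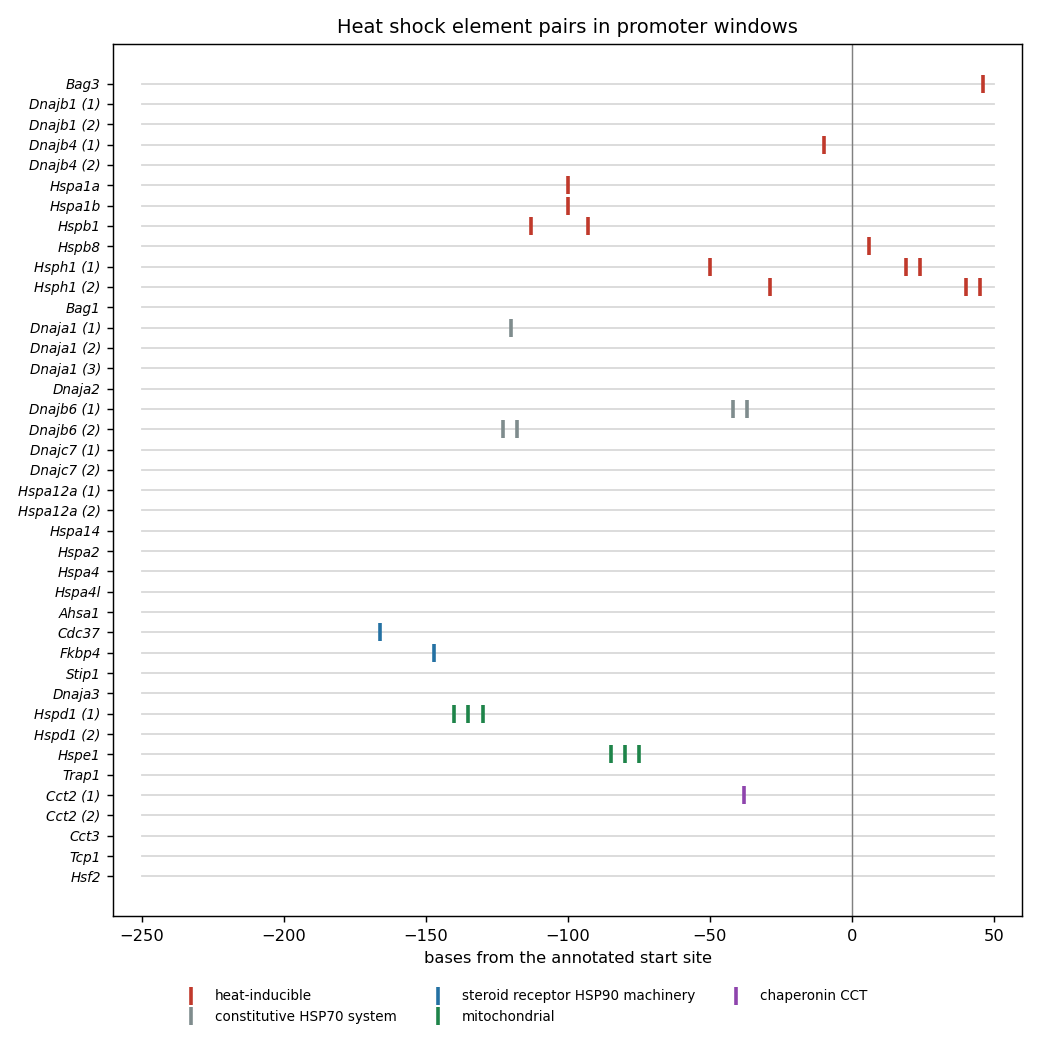
Matches to a heat shock element pair (vertical marks) in each promoter window of the 30 genes with a window, against distance in bases from the annotated start site; a number after a name marks one of several windows of that gene. The heat-inducible genes with a window, which include Hspa1b and lack Hsp90aa1, held a match in 7 of 8 genes. Hspd1 and Hspe1 show the same stretch from opposite strands.

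After degarelix, the mitochondrial chaperones were lower, while the share of heat-inducible genes that passed the test (12.5%) was near that of all genes (11.7%). Of the 32 measured members 7 passed the test, 6 lower and 1 higher. Scaling moved this split, to 4 lower and 5 higher with cyclic loess and 5 lower and 5 higher with quantile normalization. The 6 that fell were Hspa14, Hspd1, Hspa9, Hspe1, Dnaja3 and Cct2, with log2 changes of -0.27 to -0.59, and the 1 that rose was Hspb8, by 1.89-fold from untreated values within the background range, which makes its size uncertain (limma adjusted p = 0.0483 or less for each). Among all genes the test called 11.7%, with 7.53% lower and 4.2% higher, against 21.9% of the members, with 18.8% lower. Members were bright: 26 of the 32 were among the 7516 brightest genes, where 16.5% fell, 7.62% rose and the median change was -0.10. Of those 26 members 6 fell and none rose, a share near that of the bright genes. The groups did not overlap for 10 members that were lower and 5 that were higher with degarelix, against 16.4% and 14.8% of all genes (31.2% in either direction). The median change of the members was -0.08, against 0.04 over all genes.

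Untreated replicate 1 stood apart in these genes and bears on every value below. It had the lowest value of the untreated arrays for 27 of 32 members (84.4%), against 39.3% of all genes and 68.5% of the 7516 brightest genes. Its median difference from the mean of the other two untreated arrays was -0.24 over members and -0.14 over those bright genes. The gap was largest for Hsph1, at -1.42, and it was -0.50 over the heat-inducible group and -0.47 over the steroid receptor group. Over the chaperonin, mitochondrial and constitutive HSP70 groups it was -0.37, -0.24 and -0.18. The macrophage markers, 8 genes of which 6 had a mean below the brightest background probe set, had a mean log2 level of 7.17 in untreated replicate 1, 5.81 and 6.38 in the other untreated arrays and 5.81 to 5.86 with degarelix. Their part in the result was not tested. Without this array 14 of 32 members passed the test, 13 lower and 1 higher, against 15.6% of all genes, with 10.8% lower and 4.81% higher. The share among the 7516 brightest genes, which hold most members, was not computed for this fit. The 14 include all 7 that passed with every array.

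**Figure D2:**
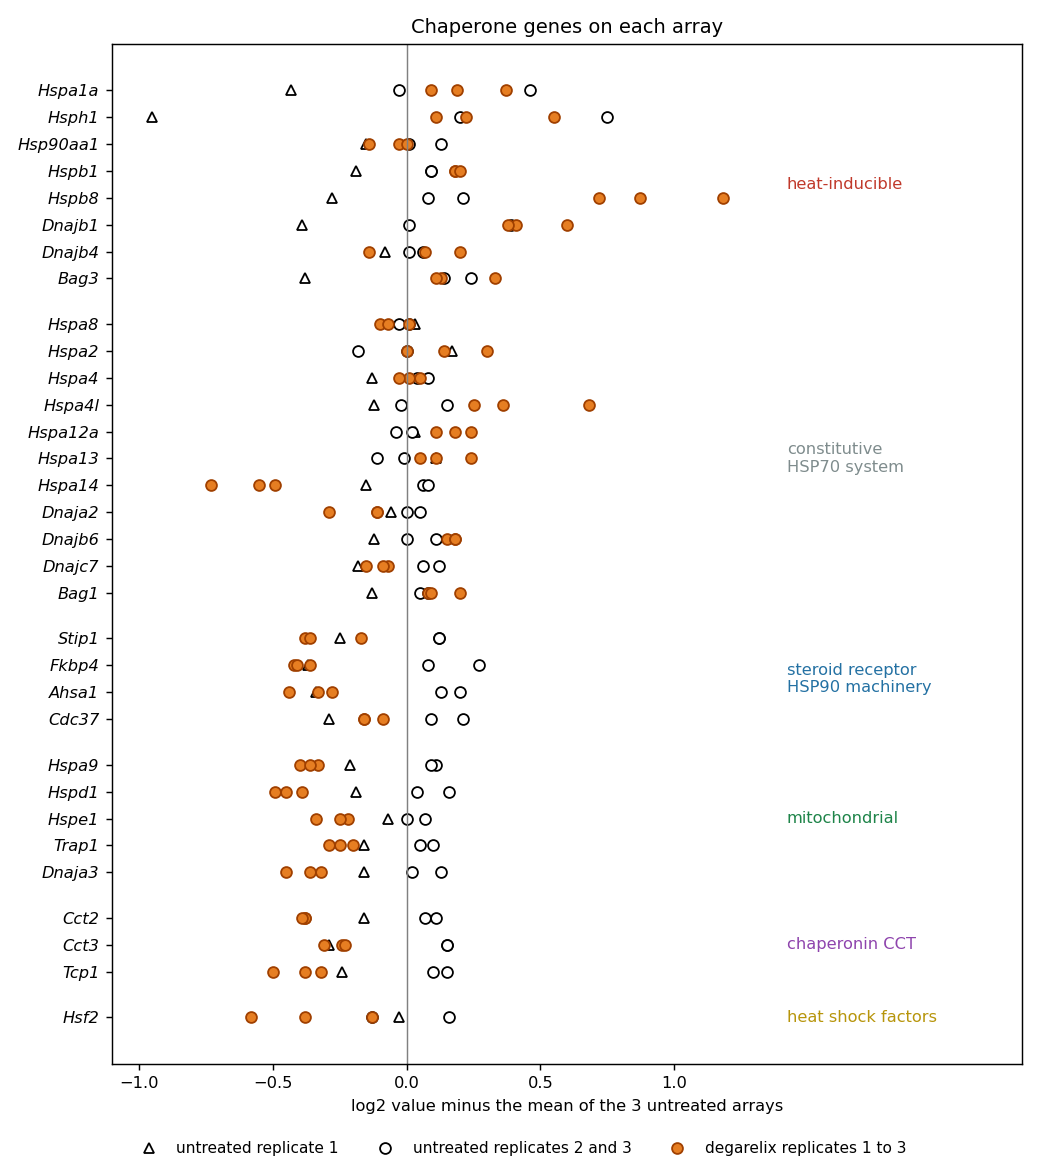
Log2 value of each measured member on each array minus the mean of its 3 untreated arrays, grouped by role (triangles, untreated replicate 1; open circles, untreated replicates 2 and 3; filled circles, degarelix). Untreated replicate 1 lies below the other untreated arrays for 27 of 32 members. The degarelix arrays of all 5 mitochondrial members lie below every untreated array, as for 16.4% of all genes.

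All 5 mitochondrial chaperones were lower after degarelix without overlap of the groups, and 4 of them passed the test. Among all genes 16.4% were lower without overlap and 7.53% were called lower, and among the 7516 brightest genes 16.5% were called lower. The median change was -0.36. Hspd1 encodes the mitochondrial chaperonin that folds imported proteins inside a closed barrel. Its log2 level was 9.54, 9.89 and 9.77 in untreated tumors and 9.24, 9.34 and 9.28 with degarelix. The lowest untreated value thus lay above the highest treated one, and the fall was 0.45 on the log2 scale (SE 0.10, limma adjusted p = 0.0195). Hspe1 encodes the lid of that barrel. Its level was 9.96, 10.10 and 10.03 untreated and 9.69, 9.81 and 9.78 with degarelix, a change of -0.27 (SE 0.07, limma adjusted p = 0.0483). The 3 values of each group were tight, with an SD of 0.07 in both (n = 3).

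Hspa9 encodes mortalin, the HSP70 of the mitochondrial matrix that also pulls proteins in through the inner membrane. Its level was 10.28, 10.60 and 10.58 in untreated tumors and 10.09, 10.16 and 10.13 with degarelix. Untreated replicate 1 was closest to the treated arrays but did not overlap them, and the change was -0.36 (SE 0.09, limma adjusted p = 0.0426). Dnaja3 encodes the J-domain partner of mortalin. It was at 8.34, 8.63 and 8.52 untreated and at 8.05, 8.14 and 8.18 with degarelix, a change of -0.38 (SE 0.09, limma adjusted p = 0.0295). Trap1, the mitochondrial relative of HSP90, had a change of -0.24 (SE 0.08) that did not pass (limma adjusted p = 0.104). Without untreated replicate 1 all 5 passed, with Trap1 at -0.32 (limma adjusted p = 0.0214). The calls of Hspd1, Hspe1, Hspa9 and Dnaja3 were all lost when untreated replicate 2 was left out (limma adjusted p = 0.0633, 0.172, 0.142 and 0.103, in that order), as they were without untreated replicate 3 (0.0677, 0.135, 0.144 and 0.0947), without degarelix replicate 1 (0.0788, 0.165, 0.144 and 0.115) and without degarelix replicate 2 (0.0541, 0.111, 0.109 and 0.09), and those of Hspe1 and Hspa9 also without degarelix replicate 3 (0.0608 and 0.0734). Scaling ended calls too: median centring those of Hspe1, Hspa9 and Dnaja3 (adjusted p = 0.0602, 0.0646 and 0.0519), cyclic loess, where the group median was -0.23, those of Hspe1 and Hspa9 (0.138 and 0.051), and quantile normalization and an intensity trend with robust variances that of Hspe1 (0.068 and 0.0636).

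Hspd1 and Hspe1 share a promoter and were compared as a pair within each array. The value of Hspd1 minus that of Hspe1 was -0.41, -0.21 and -0.26 in untreated tumors and -0.45, -0.48 and -0.50 with degarelix. The treated differences lay below all untreated ones, with a shift of -0.18 (exact two-sided permutation test, p = 0.1, adjusted p = 0.1 over 2 pairs). With 3 samples against 3, 0.1 is the smallest p that this permutation test can give, so it cannot reach 0.05 here.

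The other mitochondrial quality control genes, 18 measured, among them genes of import, proteolysis and disaggregation, were lower for 4 (22.2%) and higher for 1 (5.56%), with a median change of -0.19. Among all genes 7.53% were lower and 4.2% higher, and among the 7516 brightest genes 16.5% and 7.62%. Tomm70a, a receptor of the outer membrane that docks HSP90 and HSP70 with their cargo, fell by 0.63 (SE 0.09), the membrane protease gene Afg3l2 by 0.33 and the disaggregase gene Clpb by 0.34, a size that is uncertain because all its values were below the brightest background probe set. The import channel gene Timm23, named after its values were seen, also fell, at -0.28. Lonp1, which encodes the main protease of the matrix, moved the other way, from 8.62, 8.97 and 8.95 to 9.18, 9.49 and 9.62. Its rise of 0.59 (SE 0.13, limma adjusted p = 0.0247) was without overlap of the groups.

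The cytosolic chaperonin CCT, the ring that folds actin and tubulin, was lower in all 3 measured members and 1 passed the test. Among all genes 7.53% were called lower, and among the 7516 brightest genes 16.5%. Cct2 was at 10.84, 11.11 and 11.07 in untreated tumors and at 10.62, 10.62 and 10.61 with degarelix. The treated arrays agreed within 0.01 (SD, n = 3) and lay below all untreated ones, with a change of -0.39 (SE 0.08, limma adjusted p = 0.0218). Tcp1 had a change of -0.40 (SE 0.11) with an adjusted p of 0.0503 in limma, just outside the threshold, and Cct3 one of -0.26 (SE 0.12, adjusted p = 0.202). Without untreated replicate 1 all 3 passed, at -0.47, -0.53 and -0.41 for Cct2, Tcp1 and Cct3. Leaving out any one of untreated replicate 2, untreated replicate 3, degarelix replicate 1 and degarelix replicate 2 ended the call of Cct2 (limma adjusted p = 0.0807, 0.0803, 0.0758 and 0.0756). A list of 11 other genes held subunits of CCT and of prefoldin, which hands clients to it, and also Pdcl and Pdcl3. Of these 11 genes 10 had values below 0 and 1 passed, Cct7, at -0.43 (SE 0.09, limma adjusted p = 0.0216).

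None of the 4 measured genes of the HSP90 machinery for steroid receptors passed the test with all arrays in limma, although 3 had an unadjusted p under 0.05. The median change was -0.32. Fkbp4 encodes the immunophilin FKBP52, which binds HSP90 in complexes of the androgen receptor. Its level was 8.42, 9.06 and 8.87 in untreated tumors and 8.37, 8.43 and 8.38 with degarelix. Untreated replicate 1 lay inside the treated range and the other untreated arrays well above it, and the change was -0.39 (SE 0.15, limma adjusted p = 0.129). Ahsa1, which speeds the ATP cycle of HSP90, had a change of -0.35 (SE 0.13, adjusted p = 0.145) and Stip1, the adaptor from HSP70 to HSP90, one of -0.30 (SE 0.12, adjusted p = 0.142). Cdc37, which brings kinases to HSP90, had a change of -0.14 (SE 0.12, adjusted p = 0.486).

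Without untreated replicate 1 all 4 passed the test, against 15.6% of all genes (10.8% lower, with the share among the brightest genes not computed), and their median change was -0.47. Fkbp4 was then lower by a log2 change of -0.57 (SE 0.08, limma adjusted p = 0.00393), Ahsa1 by -0.51 (adjusted p = 0.00551), Stip1 by -0.43 (adjusted p = 0.0166) and Cdc37 by -0.29 (adjusted p = 0.0401). Each of the 4 passed only in this 1 of 15 alternative analyses. Without untreated replicate 2, limma adjusted p was 0.334, 0.347, 0.356 and 0.727, in that order. Of 16 other HSP90 cochaperones 3 fell (18.8%) and none rose with all arrays, with a median of -0.16. The share that fell was 7.53% among all genes and 16.5% among the 7516 brightest. Untreated replicate 1 was the lowest untreated array for 15 of the 16. Fkbp5 encodes FKBP51, the androgen-induced counterpart of FKBP52. It was at 8.53, 8.65 and 8.60 in untreated tumors and at 8.01, 7.98 and 8.08 with degarelix, and untreated replicate 1 stood with the other untreated arrays. Its change was -0.57 (SE 0.07, limma adjusted p = 0.00151). Nudcd2 fell by 0.58 (SE 0.10) and Rpap3, a cochaperone in the assembly of large protein complexes, by 0.41 (SE 0.10).

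**Figure D3:**
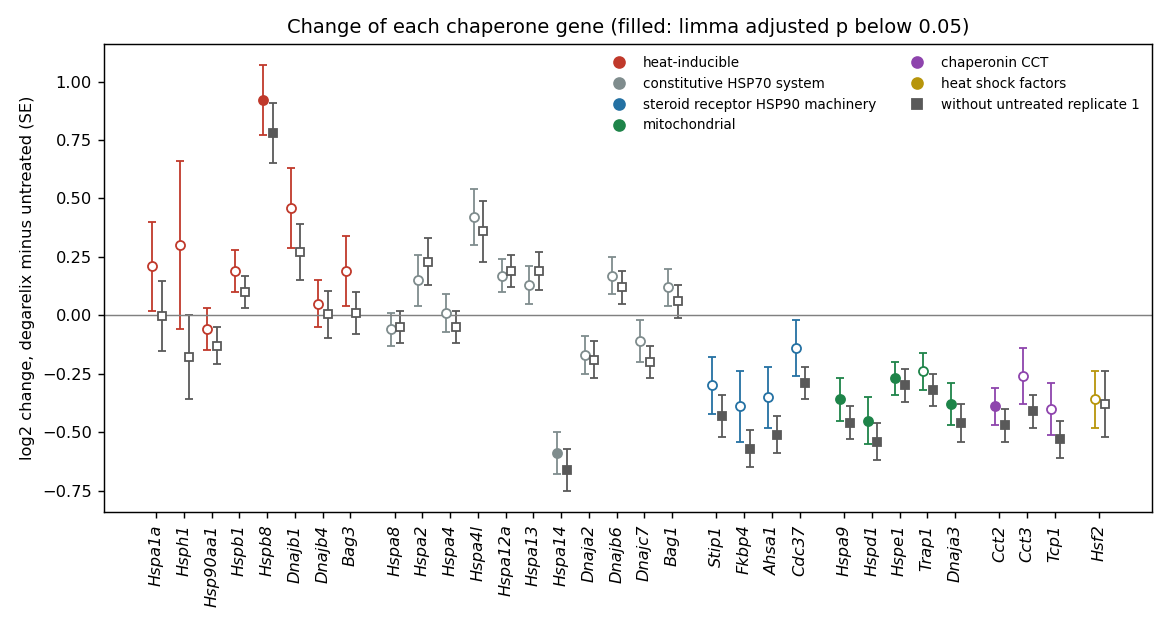
Log2 change of each measured member, degarelix minus untreated, with its SE in limma (coloured circles, all 6 arrays; grey squares, without untreated replicate 1; filled, adjusted p below 0.05). With all arrays 7 members passed, and without untreated replicate 1 all members of the steroid receptor, mitochondrial and chaperonin groups passed.

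Among 8 measured heat-inducible genes, 1 rose and 7 did not pass, with a median change of 0.20 that was 0.01 without untreated replicate 1. The share called, 12.5%, was near the 11.7% of all genes called in either direction (4.2% higher). Hspb8 encodes a small heat shock protein that works with the cochaperone of Bag3 in clearing misfolded proteins. It was at 5.87, 6.36 and 6.23 in untreated tumors and at 7.02, 6.87 and 7.33 with degarelix. The lowest treated value lay above all untreated values, and the rise was 0.92 on the log2 scale (SE 0.15, limma adjusted p = 0.00601). It passed without untreated replicate 1 too, at 0.78 (adjusted p = 0.00771). The untreated values and 1 treated value were below the brightest background probe set, at 6.93. Bag3 itself had a change of 0.19 (SE 0.15, adjusted p = 0.444) and, without untreated replicate 1, of 0.01.

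The inducible HSP70 gene Hspa1a was at 6.81, 7.70 and 7.21 in untreated tumors and at 7.33, 7.43 and 7.61 with degarelix. The treated values lay inside the untreated range, and the change of 0.21 (SE 0.19) did not pass (limma adjusted p = 0.51). Its near-identical neighbour Hspa1b may share its signal, so it is uncertain as a single gene. Hsp90aa1, the inducible form of HSP90, was at 11.25, 11.53 and 11.41 untreated and at 11.26, 11.37 and 11.40 with degarelix, a change of -0.06 (SE 0.09, adjusted p = 0.705). All treated values lay inside the untreated range. It passed in none of the 15 alternatives, and its sign turned with cyclic loess and quantile normalization.

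Hsph1, which encodes an HSP110 that recharges HSP70 and is named here after its values were seen, spread most among untreated tumors. It was at 9.72, 11.42 and 10.87 untreated, with an SD of 0.87 (n = 3), and at 10.78, 10.89 and 11.22 with degarelix. Its change was 0.30 (SE 0.36, limma adjusted p = 0.62), and -0.18 without untreated replicate 1. Dnajb1, the main inducible J-domain protein gene, had a change of 0.46 (SE 0.17, adjusted p = 0.128), which passed at 0.65 without untreated replicate 2 (adjusted p = 0.0229). The small heat shock protein gene Hspb1 was higher in every treated array, with a change of 0.19 (SE 0.09, adjusted p = 0.216) that passed with cyclic loess and quantile normalization (adjusted p = 0.0179 and 0.0382). Dnajb4, whose mean lay below the brightest background probe set, had a change of 0.05.

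Of 7 other small heat shock protein genes 1 rose, Cryab, which encodes a stress-induced crystallin, by 0.53 (SE 0.13, limma adjusted p = 0.0363). Of 10 other genes listed with the heat shock response, not all of them induced by heat, 1 fell, Mrpl18, at -0.42 (SE 0.08), and none rose. In the same samples 6 of 11 immediate early genes, which also respond to tissue handling, rose and none fell, with Dusp1 at 0.89. Among all genes 4.2% rose and 7.53% fell. The summed log2 level of that list was 13.19 to 13.41 untreated and 13.75 to 14.01 with degarelix. The part of handling in the values of the heat-inducible genes was not tested.

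Of 11 measured constitutive genes of the HSP70 system 1 fell and 10 did not pass, with a median change of 0.12. The share called, 9.09%, was near that of all genes, at 11.7% in either direction and 7.53% lower. Hspa14 encodes an HSP70 relative of the ribosome-associated complex. It was at 7.49, 7.70 and 7.72 in untreated tumors and at 6.91, 7.09 and 7.15 with degarelix. All treated values were below all untreated ones, and the change of -0.59 (SE 0.09, limma adjusted p = 0.00574) was the largest fall among the measured members. It passed in all 15 alternatives, at adjusted p of 0.00313 to 0.0259. Dnajc2, the J-domain partner of Hspa14 on the ribosome, also fell, at -0.38 (SE 0.09, adjusted p = 0.0288), from 8.08, 8.31 and 8.37 to 7.80, 7.90 and 7.91.

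Hspa8, the constitutive HSP70, was at 13.48, 13.46 and 13.42 untreated and at 13.35, 13.46 and 13.38 with degarelix, a change of -0.06 (SE 0.07, limma adjusted p = 0.587). The cluster that gave this value carries chromosome 6 in its identifier, whereas RefSeq places the gene on chromosome 9. Of 22653 clusters with 1 symbol and a RefSeq chromosome 120 had such a mismatch, and among the members Hspa8 was the only gene measured through one. The cluster on chromosome 9 named Hspa8 together with 3 small nucleolar RNA genes, and its difference of -0.14 is that of the cluster and not of 1 gene. Values of Hspa8 are therefore uncertain.

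The HSP110 relative Hspa4l, known from testis, was higher in all treated arrays. Its change was 0.42 (SE 0.12) with an adjusted p of 0.0545 in limma, outside the threshold but inside it with cyclic loess and quantile normalization (adjusted p = 0.0215 and 0.0152), while its sister gene Hspa4 changed by 0.01 (SE 0.08, adjusted p = 0.934). Within arrays, Hspa4l minus Hspa4 was -1.76, -1.66 and -1.87 untreated and -1.53, -1.39 and -1.14 with degarelix, a shift of 0.41 (exact two-sided permutation test, p = 0.1, adjusted p = 0.1 over 2 pairs). The remaining members had small changes. Dnajb6, an inhibitor of protein aggregation, was at 0.17, the divergent HSP70 gene Hspa12a at 0.17 and the HSP70 gene Hspa2 at 0.15. Hspa13, whose product is found at microsomes and not in the cytosol proper, was at 0.13, and the exchange factor gene Bag1 at 0.12. Dnajb6 and Bag1 passed with cyclic loess (adjusted p = 0.026 and 0.0168) and quantile normalization (0.023 and 0.0442). Dnaja2 and Dnajc7, J-domain protein genes, were at -0.17 and -0.11. With all arrays as deposited, adjusted p for these 7 genes was 0.147 to 0.473.

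A list of 8 genes held nucleotide exchange and partner factors of HSP70 and also the HSP70 relatives Hspa12b and Hspa1l. Of these 8 genes 1 fell, Bag4, at -0.45 (SE 0.07, limma adjusted p = 0.0059), although its mean lay below the brightest background probe set and the size is uncertain. Of 17 other J-domain protein genes 2 rose and 2 fell, 11.8% each way, against 4.2% and 7.53% of all genes. Dnajc9, a histone chaperone that recruits HSP70, fell by 0.86 (SE 0.12), from 7.79, 8.20 and 8.17 to 7.05, 7.25 and 7.30. Dnajc12 rose by 0.48 (SE 0.08) and Dnajb5 by 0.35 (SE 0.07), both without overlap of the groups. The sizes of these rises are uncertain, since the mean of either gene was under that of the brightest background probe set.

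The single heat shock factor measured, Hsf2, was at 5.76, 5.66 and 5.95 untreated and at 5.21, 5.41 and 5.66 with degarelix. The groups met at the lowest untreated and the highest treated value, which differed by less than these decimals show. Its change of -0.36 (SE 0.12) did not pass (limma adjusted p = 0.095) and passed without degarelix replicate 3, at -0.48 (adjusted p = 0.0376). All its values were below the brightest background probe set.

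Other lists were read in the same samples, where 7.53% of all genes fell and 4.2% rose. All 11 measured proliferation genes fell, with a median of -1.81 and Mki67, the Ki-67 gene, at -3.00, and their summed log2 level was 12.12 to 12.39 untreated and 10.46 to 10.86 with degarelix. Of 7 fibroblast markers 2 rose, Dcn by 1.46 and Fbln1 by 1.07, with summed levels of 10.69 to 10.99 and 10.99 to 11.66. Of 6 endothelial markers 1 fell, Vwf, at -0.71, with summed levels of 9.02 to 9.30 and 8.68 to 8.75. None of 8 macrophage markers passed in limma, 2 at an unadjusted p under 0.05, with summed levels of 9.10 to 10.64 and 9.11 to 9.13. Of 6 neutrophil markers 1 rose, Ly6g, by 0.38, and none of 7 lymphocyte markers passed (0 at an unadjusted p under 0.05). The means of all 13 of these lay below the brightest background probe set. The part of these lists in the chaperone values was not tested. Of 5 luminal epithelial markers none passed (2 at an unadjusted p under 0.05), and Krt8 was at 11.25 to 12.09 on all arrays, while Epcam and Cdh1, at 3.79 to 5.07, lay within the background range.

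**Figure D4:**
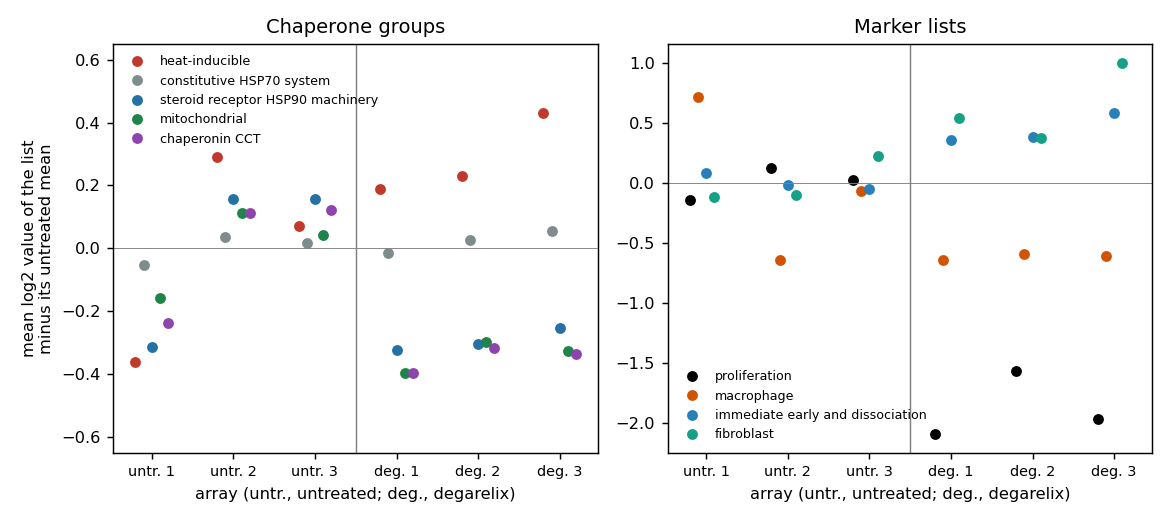
Mean log2 value of 5 chaperone groups (left) and 4 marker lists (right) on each array minus the mean of the 3 untreated arrays; each point is 1 array, and the vertical line separates the groups. In untreated replicate 1 all 5 chaperone groups lie below their level in the other untreated arrays, the heat-inducible and steroid receptor groups most. The macrophage markers are high in that array, whereas the proliferation genes are low in all 3 degarelix arrays.

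Values of the mitochondrial, chaperonin, steroid receptor and heat-inducible groups are given side by side, and the difference between these groups was not tested.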

How the data were processed

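Biotin-labelled RNA of sorted tumor cells was hybridised to Affymetrix MTA 1.0 arrays, 1 per tumor, 3 untreated and 3 degarelix. The deposited table holds log2 values, made with Affymetrix Expression Console and RMA per the submitters' processing notes; their versions and the genome build are not stated in the labels. RMA normalizes arrays to a common distribution and compresses changes of dim genes. Control probe sets (6732 of 72688 rows) were left out.

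Clusters with exactly 1 symbol in the supplied platform annotation (30604) were used, symbols were updated through Entrez identifiers and unambiguous synonyms (1135 changed, GRCm38.p6), and the brightest cluster of each of 30063 genes was tested with limma 3.58.1 (R 4.3.3; lmFit, eBayes, two-sided, Benjamini-Hochberg over all genes, threshold 0.05). Changes are degarelix minus untreated with the moderated SE. A summed level is log2 of the sum of a list's linear values. In data simulated for this comparison with 30063 genes, 95 of 100 genes changed by a log2 of 1, 44 of 100 changed by 0.5 and 9 of 29863 unchanged genes were called. The simulation drew errors independently, with no array that stood apart, and changed far fewer genes than were called in the data. Its rates therefore need not hold for these members.

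Members, roles and lists were chosen with earlier results of these data known. All members are accounted for: array values are given for called members and for key genes set by name, and up to 4 called genes per wider list plus Fkbp5 are named. Of 5 pairs planned for comparison, 3 included a gene with no value. The check whether replicate numbers pair samples gave correlations of deviations of 0.16, 0.04 and 0.20, so pairing was not taken as given. As alternatives, arrays were rescaled (by median centring, by cyclic loess or by quantiles), variances were fitted with an intensity trend and robustly, dim genes were filtered, clusters of a gene were averaged, the replicate number was used as a block and each array was left out, and, chosen after seeing the data, clusters on the gene's own chromosome and symbols updated through Entrez only. Python 3.11.15, pandas 2.3.3, scipy 1.17.1 and matplotlib 3.10.9 were used.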

Additional observations from a re-analysis of the deposited data

How the results depend on the processing

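With 3 arrays per group and levels near background for 5 of 32 members, small changes could have been missed. The number of members called lower was 6, and was 3 with median centring and 1 to 13 on leaving out single arrays, with 13 without untreated replicate 1. The number called higher was 1, and was 5 with cyclic loess, 5 with quantile normalization, 2 with the filter on dim genes and 2 with the replicate block; leaving out single arrays gave 1 to 2. Hspa14 and Hspb8 passed in all 15 alternatives. Over all genes, 968 to 3255 were lower and 629 to 1649 higher on leaving out single arrays, against 2265 and 1264, and median centring gave 699 higher. The median of the constitutive HSP70 genes (0.12) was 0.08 with median centring, 0.01 with the filter on dim genes and 0.06 to 0.14 on leaving out single arrays, and that of the mitochondrial genes (-0.36) was -0.23 with cyclic loess and -0.25 with quantile normalization. The causes were not tested. Leaving out arrays or dim genes also left fewer samples or genes.

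No sign change concerned a called gene. Hsp90aa1 (-0.06) was at 0.09 with cyclic loess, 0.08 with quantile normalization and 0.01 without untreated replicate 2 (-0.13 to 0.01 on leaving out single arrays), and Hspa8 (-0.06) was at 0.11 with cyclic loess. Hspa4 (0.01) was at -0.03 with median centring, -0.05 without untreated replicate 1 and -0.01 without degarelix replicate 3. Dnajb4 (0.05) was at -0.03 without degarelix replicate 3, and Hspa1a (0.21) and Hsph1 (0.30) were at -0.0023 and -0.18 without untreated replicate 1, the lowest of values that reached 0.44 and 0.67 on leaving out single arrays. With the replicate block 10 members passed, the 7 of the fit without it and also Hsf2, Tcp1 and Hspa4l (adjusted p = 0.0414, 0.0258 and 0.0493); every array correlated best with the array of the other group that has its number, a hint from the data and not the design.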
